A study of Mus musculus with 12 samples.

Results

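A set of 10 FoxO-linked genes was followed in immortalized mouse embryonic palatal mesenchyme (iMEPM) cells: the transcription factors *Foxo1*, *Foxo3* and *Foxo4*, and *Irs2*, *Pik3ip1*, *Ccng2*, *Bcl6*, *Sesn1*, *Sesn3* and *Txnip*, genes known as targets or partners of the FoxO factors. They were taken from the table by symbol, 10 of 51490 genes, by a rule that uses no measured value, although the set was drawn up with earlier results of these data known, and all 10 were among the 15037 genes that passed the low-count filter. The cells came from a male *Cdkn2a*-/- embryo, so every group lacked *Cdkn2a*. They had been infected with lentivirus carrying either a scramble shRNA or an shRNA to *Srsf3* (shSrsf3), a splicing factor of the SR family, and were sorted for high GFP, giving 1 stable line per shRNA. A difference between shSrsf3 and scramble is therefore also a difference between 2 lines. Cells received no ligand (-PDGF-AA) or the growth factor PDGF-AA at 10 ng/mL over 1 hr (+PDGF-AA), with 3 samples in each of the 4 groups and 12 in all. Polyadenylated RNA was sequenced.

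The FoxO factors are held in check by growth factor signalling. PDGF-AA binds PDGFRα, which recruits PI3K, and PI3K activates Akt. Akt phosphorylates FoxO proteins, which then leave the nucleus, and transcription of their target genes falls. Several targets act back on the pathway: IRS2 carries insulin and IGF signals to PI3K, PIK3IP1 binds PI3K and lowers its activity, and the sestrins restrain mTORC1. Signalling through PI3K is a main output of PDGFRα in the palatal mesenchyme.

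The total estimated count ranged from 30958966 to 76123359 per sample, and the 3 shSrsf3 +PDGF-AA samples were among the 4 shallowest. *Srsf3* itself was lower in the shSrsf3 line, by 0.34 on the log2 scale without ligand (adjusted p = 7.95e-06, edgeR quasi-likelihood test) and by 0.43 with it (adjusted p = 9.54e-07). As a check of the ligand, *Egr1* rose by 1.44 on the log2 scale in scramble cells and 1.08 in shSrsf3 cells, and *Klf10* by 1.39 and 1.22, while the log2 fold change of *Fos* was -0.04 in scramble cells (not called) and -0.58 in shSrsf3 cells (called lower). All 8 mesenchymal marker genes were detected, with a summed level of 34911 to 36662 CPM (counts scaled to library size) in the scramble samples and 31172 to 33449 CPM in the shSrsf3 samples. In the shSrsf3 line 5 of the 8 were called lower and 1 higher without ligand (all genes, 23.7% lower and 45.9% in either direction). With ligand 4 were lower and 1 higher (20.7% and 41.0%). Upon PDGF-AA 2 were called lower in scramble cells (2.04% and 4.04%). In both shSrsf3 groups 1 of the 8 had a mean under 1 CPM, while none did in the scramble groups. Epithelial, blood and muscle markers summed to at most 3.30 CPM in any sample. Endothelial markers summed to 19.1 to 34.6 CPM, nearly all *Tek*, which was lower in the shSrsf3 line without ligand (30.6 against 20.0 CPM), while *Cdh5* (0.274 against 1.37 CPM) and *Kdr* (0.251 against 0.623 CPM) were higher. Neural markers summed to 17.3 to 29.2 CPM, all of it *Tubb3*, which was lower in the shSrsf3 line, and the other 2 were at 0 in every sample. The part of these markers in the results was not tested. In addition, 3 scramble libraries (-PDGF-AA replicates 1 and 2, +PDGF-AA replicate 2) had a Salmon mapping rate under 90%. Results for the 10 genes that changed when these libraries were left out are given with the values or with the processing alternatives. Leaving them out makes scramble -PDGF-AA replicate 3 the only sample of its group. By their counts, scramble -PDGF-AA replicate 3 and scramble +PDGF-AA replicate 2 stood apart from the others of their groups (chi-square per gene of 24.7 and 32.6 against 5.25 for the remaining scramble -PDGF-AA pair, and 23.5 and 16.5 against 6.99 for the remaining scramble +PDGF-AA pair).

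Promoter sequence was read from RefSeq (GRCm38.p6), in windows of 250 bases before to 50 bases after the start of transcription, for 9 of the 10 genes (11 windows). *Foxo4* had no entry. Both strands were searched for the FoxO motif GTAAACA (reverse complement TGTTTAC), present in 3.65% of all 32851 windows, for a pair of CACGNG boxes 5 bases apart, the carbohydrate response element bound by MondoA and ChREBP with Mlx, present in 0.0487%, and for the insulin response sequence CAAAACA (reverse complement TGTTTTG), present in 6.28%. The last motif was added after the sequences were seen. *Txnip* held the FoxO motif at bases -121 to -115 and the paired CACGNG boxes at -85 to -69. *Irs2* and *Ccng2* held the insulin response sequence at -37 to -31 and -16 to -10, counted on the strand of the gene from +1 at the start site, and 1 of the 2 *Sesn1* windows held the FoxO motif at 23 to 29. The stretches around these matches are shown because they are the places where the letters of a FoxO or glucose-sensing element occur in the genes described. Capitals mark the matched letters. The coordinates are chr3:96557811-96557913 (*Txnip*, plus strand), chr8:11008935-11008991 (*Irs2*, minus strand), chr5:93267532-93267572 (*Ccng2*, plus strand) and chr10:41810585-41810614 (*Sesn1*, plus strand).
Txnip: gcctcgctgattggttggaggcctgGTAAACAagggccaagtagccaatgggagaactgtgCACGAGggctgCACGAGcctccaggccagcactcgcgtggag
Irs2: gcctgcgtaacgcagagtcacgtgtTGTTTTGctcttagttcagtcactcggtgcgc
Ccng2: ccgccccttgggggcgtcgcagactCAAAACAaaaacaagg
Sesn1: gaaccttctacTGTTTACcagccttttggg
A match describes the letters only and is not evidence of binding. No window of *Foxo1*, *Foxo3*, *Pik3ip1*, *Bcl6* or *Sesn3* held any of the 3 motifs.

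Per kilobase of merged exons, *Txnip* was the most abundant of the 10 transcripts in every group and *Foxo1* the least. In scramble -PDGF-AA cells the mean level was 19.3 ± 0.234 CPM per kb for *Txnip* (SD, n = 3), 12.7 ± 0.652 for *Irs2*, 7.40 ± 0.348 for *Sesn3*, 7.29 ± 0.834 for *Foxo3*, 5.15 ± 0.554 for *Foxo4*, 5.11 ± 0.332 for *Pik3ip1*, 3.89 ± 0.153 for *Ccng2*, 3.43 ± 0.0826 for *Bcl6*, 3.18 ± 0.243 for *Sesn1* and 1.90 ± 0.141 for *Foxo1*. The neighbours *Sesn3* and *Foxo3*, *Foxo4* and *Pik3ip1*, and *Bcl6* and *Sesn1* lay within their spread. Among the 3 FoxO factors, *Foxo3* was highest and *Foxo1* lowest in each group. In both shSrsf3 groups *Pik3ip1* lay below *Bcl6* and *Sesn1*; with ligand it was at 2.16 ± 0.0539 CPM per kb.

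**Figure D1:**
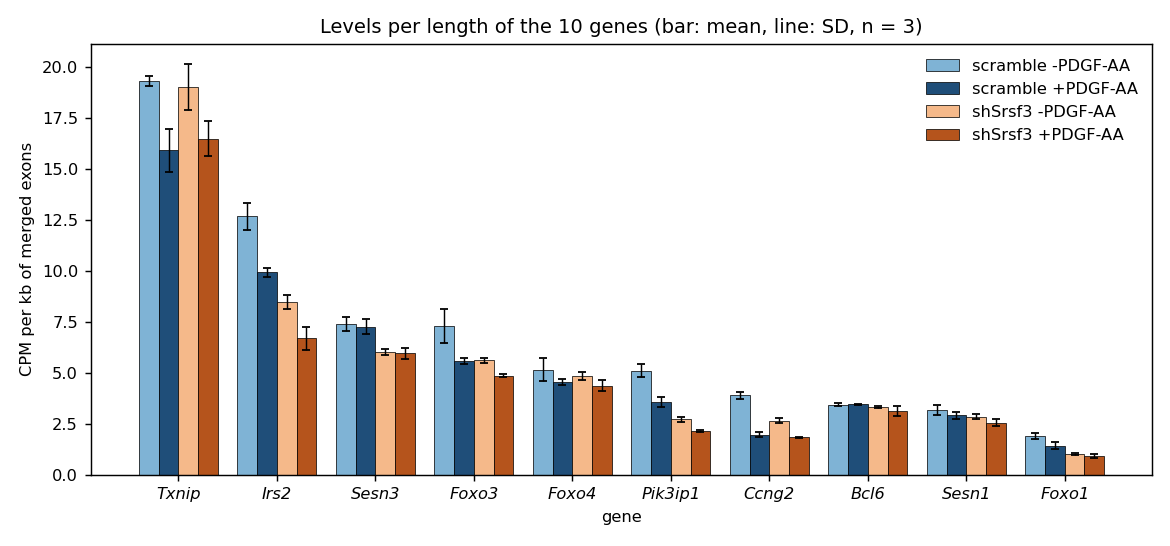
Mean level per length (CPM per kb of merged exons, bars, with SD as lines, n = 3) of the 10 genes in the 4 groups. *Txnip* stands highest and *Foxo1* lowest in every group.

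To ask how 1 hr of PDGF-AA altered these genes in control cells, scramble +PDGF-AA was compared with scramble -PDGF-AA. In all, 6 of the 10 genes fell and none rose: *Ccng2*, *Pik3ip1*, *Foxo1*, *Foxo3*, *Irs2* and *Txnip* (6 of 10 at an adjusted p of 0.05 or less, against 2.04% of the 15037 genes tested called lower and 4.04% called in either direction). The share of all genes called in either direction varied with single libraries. It was 9.80% without scramble -PDGF-AA replicate 3 (6 of the 10 genes called), 2.18% without scramble -PDGF-AA replicate 2 (4 called), 2.22% without scramble +PDGF-AA replicate 1 (5 called) and 1.62% without scramble +PDGF-AA replicate 3 (5 called). The median log2 fold change of the 10 was -0.32, beside -0.01 over all genes tested. None reached the study's fold minimum for a DE gene (adjusted p of 0.05 or less and at least 2-fold), which 0.200% of genes did. The largest fall was that of *Ccng2*, which encodes cyclin G2, a cyclin that holds back the cell cycle. Its levels were 22.3, 22.4 and 23.9 CPM in the 3 scramble -PDGF-AA samples and 10.8, 12.3 and 11.4 CPM in the 3 scramble +PDGF-AA samples. The groups lay far apart, and the transcript decreased by 49.8% (log2 fold change -0.99, SE 0.0564, adjusted p = 4.47e-07), which placed it 96th from the lowest of the 15037 genes and just short of 2-fold. Without scramble -PDGF-AA replicate 1, scramble -PDGF-AA replicate 2 or scramble +PDGF-AA replicate 2, the fall passed 2-fold and 1 of the 10 genes was DE, as it was without all 3 of them (log2 fold change -1.11).

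Both genes that act at PI3K fell. *Pik3ip1*, which encodes an inhibitor of PI3K at the cell membrane, was at 24.7, 27.6 and 27.8 CPM without ligand and at 17.9, 20.1 and 18.1 CPM with it, and decreased by 29.99% (log2 fold change -0.51, SE 0.0590, adjusted p = 2.62e-04). *Irs2*, the insulin receptor substrate that links insulin and IGF receptors to PI3K, was at 98.8, 91.2 and 89.9 CPM without ligand and 73.7, 74.3 and 71.1 CPM with it. Every stimulated sample lay below every unstimulated one, and the decrease was 21.7% (log2 fold change -0.35, SE 0.0572, adjusted p = 0.00349).

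Of the 3 FoxO transcripts, 2 fell as well. *Foxo1* was at 16.9, 19.2 and 16.8 CPM without ligand and at 12.3, 15.03 and 12.3 CPM with it, in groups that did not overlap (log2 fold change -0.41, SE 0.0884, adjusted p = 0.0175). This call depended on single libraries: leaving out scramble -PDGF-AA replicate 2 gave an adjusted p of 0.0813, and leaving out the first or the third scramble +PDGF-AA sample gave 0.0883 and 0.103, with log2 fold changes of -0.35 to -0.37, and 0.0740 in a fit of these 2 groups alone. *Foxo3* was at 63.9, 61.7 and 76.03 CPM without ligand, the third sample standing above the other 2, and at 52.7, 51.4 and 50.1 CPM with it (log2 fold change -0.39, SE 0.0623, adjusted p = 0.00318). *Foxo4* was at 16.1 to 19.9 CPM without ligand and 15.5 to 16.5 CPM with it, in overlapping groups (log2 fold change -0.19, SE 0.0702, adjusted p = 0.179). Without scramble -PDGF-AA replicate 1 the adjusted p for *Foxo4* was 0.0367 (log2 fold change -0.26), and without all 3 libraries of lower mapping rate 0.0403 (-0.32).

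*Txnip* encodes a thioredoxin-binding arrestin that restrains glucose uptake, and its promoter stretch is printed above. It was at 60.6, 62.0 and 60.8 CPM without ligand and 50.9, 46.8 and 53.3 CPM with it, a decrease of 17.6% (log2 fold change -0.28, SE 0.0563, adjusted p = 0.0130). The call was lost when scramble -PDGF-AA replicate 2 was left out (adjusted p = 0.0570) and when all 3 libraries of lower mapping rate were (adjusted p = 0.129, log2 fold change -0.22). The remaining genes did not pass the test. *Bcl6*, a transcriptional repressor, had a log2 fold change of 0.01 (SE 0.0477), and the stress-responsive sestrin genes *Sesn1* and *Sesn3* had -0.12 (SE 0.0677) and -0.03 (SE 0.0483). For all 10 genes each comparison of 3 against 3 samples could reach no lower than p = 0.1 in an exact permutation test of 1 gene, so the p-values given rest on the spread shared across genes.

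**Figure D2:**
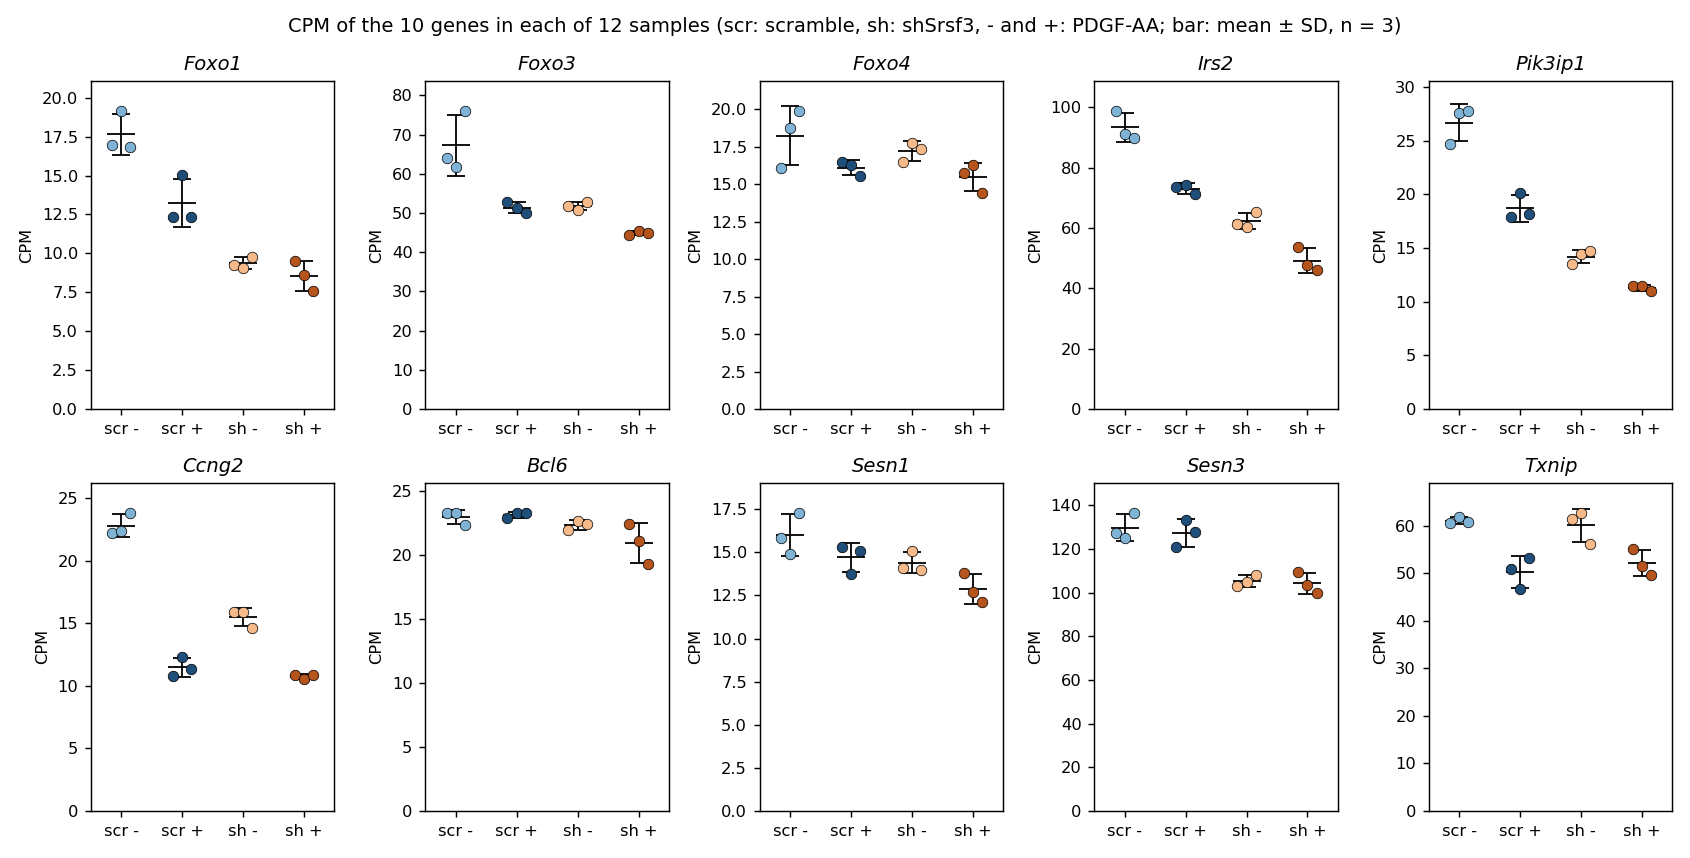
Level in CPM (y axis, from 0) of each of the 10 genes in each of the 12 samples, with mean ± SD as bars (n = 3; scr, scramble; sh, shSrsf3; - and +, PDGF-AA). The 3 scramble +PDGF-AA points of *Ccng2* (10.8 to 12.3 CPM) lie far below the 3 scramble -PDGF-AA points (22.3 to 23.9 CPM) and beside the shSrsf3 +PDGF-AA points.

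The same comparison was made in the shSrsf3 line, in samples separate from the scramble ones but in 1 fit with them. Here 3 of the 10 genes fell and none rose: *Ccng2*, *Irs2* and *Pik3ip1* (against 0.140% of genes called lower and 0.565% called in either direction). *Ccng2* was at 15.9, 15.9 and 14.7 CPM without ligand and at 10.8, 10.5 and 10.9 CPM with it, and decreased by 30.8% (log2 fold change -0.53, SE 0.0600, adjusted p = 8.64e-04). *Irs2* was at 61.3, 60.4 and 65.4 CPM without ligand and 53.8, 47.7 and 46.0 CPM with it (log2 fold change -0.34, SE 0.0586, adjusted p = 0.0152). *Pik3ip1* was at 13.5, 14.4 and 14.7 CPM without ligand and 11.5, 11.4 and 10.97 CPM with it (log2 fold change -0.33, SE 0.0658, adjusted p = 0.0459). None of the 10 was DE (0.0399% of genes were). The call on *Ccng2* held when any 1 of the 12 samples was left out, but it was then the only call of the 10 without any 1 of shSrsf3 -PDGF-AA replicates 1, 2 and 3 or shSrsf3 +PDGF-AA replicates 2 and 3. Over these 5 omissions, the adjusted p ranged from 0.0547 to 0.102 for *Irs2*, and 9 of the 12 omissions ended the call on *Pik3ip1*. Among the 9 were scramble -PDGF-AA replicate 2 (adjusted p = 0.0607) and scramble +PDGF-AA replicates 1 (0.0522) and 3 (0.0705).

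For the other 7 genes the log2 fold changes upon PDGF-AA in shSrsf3 cells ran from -0.21 to -0.01. *Foxo3* was at 51.8, 50.7 and 52.9 CPM without ligand and 44.3, 45.5 and 44.9 CPM with it. The groups did not overlap, but the fold change of -0.21 did not pass the test (SE 0.0636, adjusted p = 0.247). It passed with no low-count filter (adjusted p = 0.0136), in a fit of these 2 groups alone (0.0153), without the 3 libraries of lower mapping rate (0.0163) and without scramble -PDGF-AA replicate 3 alone (0.0173). *Txnip* was at 61.5, 62.8 and 56.1 CPM without ligand and 55.1, 51.7 and 49.7 CPM with it (log2 fold change -0.21, SE 0.0569, adjusted p = 0.166), again in groups that did not overlap, and passed with no low-count filter (adjusted p = 0.0115), a setting that called 1.38% of all genes. *Foxo1* was at 9.27, 9.05 and 9.80 CPM without ligand and 9.49, 8.64 and 7.56 CPM with it, in overlapping groups (log2 fold change -0.12, SE 0.0984, adjusted p = 0.780). Over the whole table, 13 genes (0.0865%) were called lower upon PDGF-AA in both lines, and *Ccng2*, *Irs2* and *Pik3ip1* were 3 of them.

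**Figure D3:**
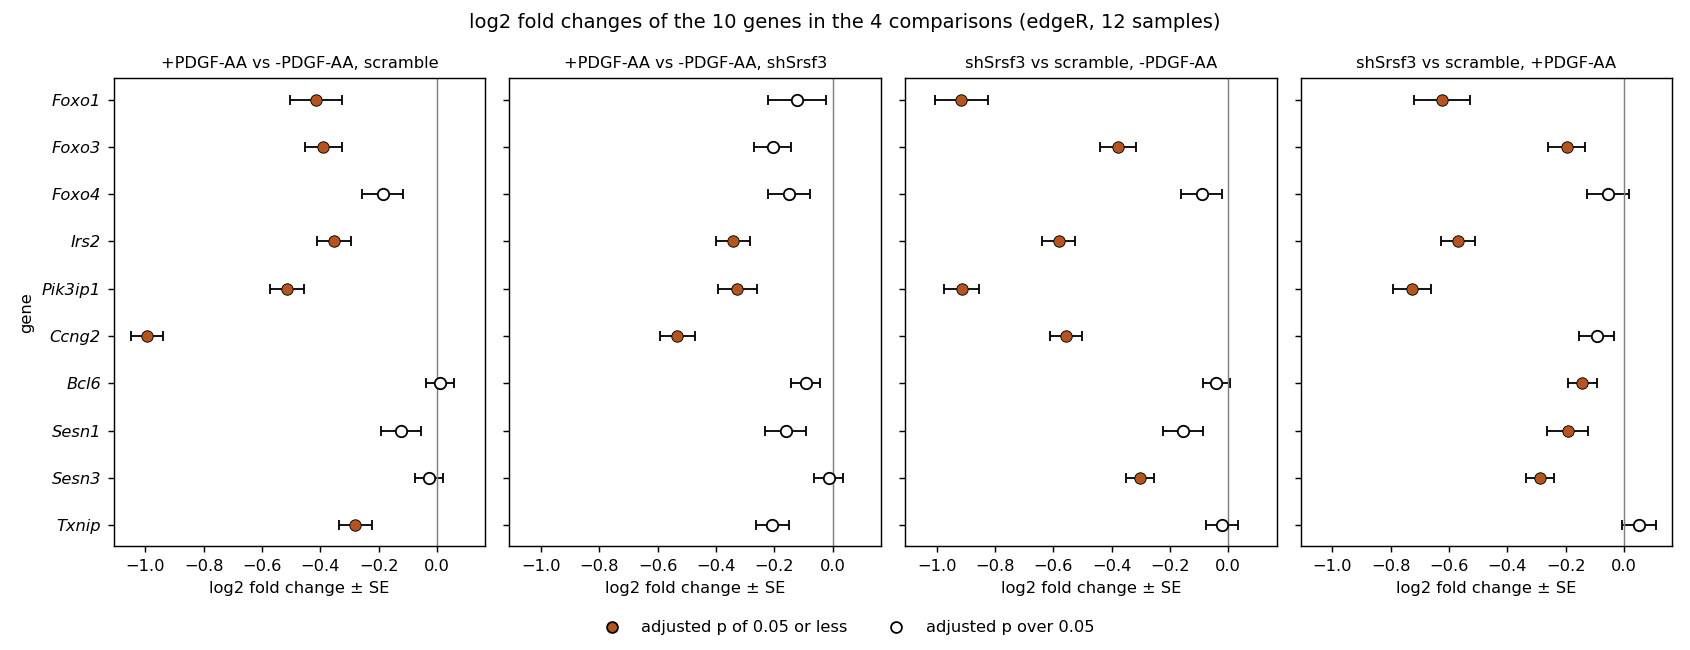
The log2 fold change (x axis, with SE) of the 10 genes in the 4 comparisons. Filled points passed an adjusted p of 0.05 or less in the edgeR fit of all 12 samples: 6 genes upon PDGF-AA in scramble cells, 3 upon PDGF-AA in shSrsf3 cells, and 6 and 7 in shSrsf3 against scramble cells.

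Whether the ligand effect differed between the lines was tested as an interaction. None of the 10 genes passed it (0.0133% of genes did, 2 in all; edgeR quasi-likelihood test). *Foxo1* and *Ccng2* had an unadjusted p under 0.05, as did 5.54% of all genes. For *Ccng2* the ligand effect in shSrsf3 cells was 0.46 higher on the log2 scale than in scramble cells (SE 0.0824, unadjusted p = 7.62e-05, adjusted p = 0.144). DESeq2 gave the same difference with an adjusted p of 0.0170, edgeR with no low-count filter 0.00149, and edgeR without the 3 libraries of lower mapping rate 0.0389 (difference 0.57), so that each of these settings called 1 of the 10, where they called 0.173%, 0.803% and 0.0992% of all genes. The stimulated level of *Ccng2* was 11.5 ± 0.750 CPM in scramble and 10.8 ± 0.193 CPM in shSrsf3 cells (SD, n = 3), and the lines differed in the unstimulated level, 22.8 ± 0.898 against 15.5 ± 0.738 CPM. The interaction for *Foxo1* was 0.29 (SE 0.132, unadjusted p = 0.0451, adjusted p = 0.874) and for *Pik3ip1* 0.19 (SE 0.0885, adjusted p = 0.874). For *Irs2*, whose fold changes in the lines were close, it was 0.01 (SE 0.0818).

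Next, shSrsf3 and scramble cells were compared in the absence of ligand. Here 6 of the 10 genes were lower in the shSrsf3 line and none was higher (23.7% of all genes tested were called lower and 45.9% in either direction). None was DE (5.75% of genes were). The median log2 fold change of the 10 was -0.34, beside -0.02 over all genes. *Foxo1* decreased by 47.0% between 17.6 ± 1.31 CPM in scramble and 9.37 ± 0.385 CPM in shSrsf3 cells (log2 fold change -0.91, SE 0.0910, adjusted p = 2.80e-06). *Pik3ip1* decreased by 46.9%, between 26.7 ± 1.73 and 14.2 ± 0.630 CPM (log2 fold change -0.91, SE 0.0604, adjusted p = 5.44e-08). These were the largest differences of the 10, and in both cases no sample of one line reached the range of the other.

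*Irs2* was at 93.3 ± 4.80 CPM in scramble and 62.4 ± 2.66 CPM in shSrsf3 cells (log2 fold change -0.58, adjusted p = 2.65e-06), and *Ccng2* differed by a like amount (log2 fold change -0.56, adjusted p = 2.89e-06). *Foxo3* was at 67.2 ± 7.70 and 51.8 ± 1.12 CPM (log2 fold change -0.38, adjusted p = 2.51e-04). *Sesn3*, which stood above *Sesn1* in level per length, was at 127.4, 125.1 and 136.6 CPM in scramble and 102.8, 104.9 and 108.0 CPM in shSrsf3 cells (log2 fold change -0.30, adjusted p = 2.03e-04). *Txnip* was at 61.1 ± 0.741 and 60.1 ± 3.53 CPM (log2 fold change -0.02, SE 0.0562), and *Bcl6* at 22.4 to 23.3 CPM in scramble cells beside 22.4 ± 0.366 CPM in shSrsf3 cells (-0.04, SE 0.0480). *Foxo4* and *Sesn1* had log2 fold changes of -0.09 (SE 0.0703, adjusted p = 0.315) and -0.16 (SE 0.0681, adjusted p = 0.0772). Without the 3 libraries of lower mapping rate both were called lower, at -0.22 (adjusted p = 0.0313) and -0.27 (adjusted p = 0.0112). Leaving out scramble -PDGF-AA replicate 1 alone also called *Foxo4* (adjusted p = 0.0461), and leaving out scramble -PDGF-AA replicate 2 alone called *Sesn1* (0.0391).

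In the presence of PDGF-AA, 7 of the 10 genes were lower in shSrsf3 than in scramble cells and none was higher (20.7% of genes were called lower, 41.0% in either direction). None was DE (5.42% of genes were). The largest differences were again those of *Pik3ip1*, at 18.7 ± 1.25 against 11.3 ± 0.281 CPM (log2 fold change -0.73, SE 0.0646, adjusted p = 1.02e-06), *Foxo1*, at 13.2 ± 1.55 against 8.56 ± 0.963 CPM (-0.62, SE 0.0961, adjusted p = 1.58e-04), and *Irs2*, at 73.0 ± 1.69 against 49.2 ± 4.10 CPM (-0.57, SE 0.0585, adjusted p = 3.95e-06). *Sesn3* was at 120.8, 133.3 and 127.9 CPM in scramble and 109.2, 103.5 and 99.9 CPM in shSrsf3 cells (-0.29, adjusted p = 3.28e-04). These 4 genes were called whichever 1 of the 12 samples was left out.

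The other 3 calls were small and less stable. *Foxo3* had a log2 fold change of -0.20 (adjusted p = 0.0244), *Sesn1* of -0.19 (adjusted p = 0.0426) and *Bcl6* of -0.14 (adjusted p = 0.0319). Without scramble +PDGF-AA replicate 1, shSrsf3 +PDGF-AA replicate 2 or shSrsf3 +PDGF-AA replicate 3, all 3 calls were lost and 4 of the 10 remained. These omissions called 36%, 34.1% and 34.5% of all genes. DESeq2 called neither *Sesn1* (adjusted p = 0.0653) nor *Bcl6* (0.0711), and *Bcl6* was not called without the 3 libraries of lower mapping rate either (0.0615). The log2 fold changes of *Ccng2* (-0.09, SE 0.0609), *Foxo4* (-0.05, SE 0.0729) and *Txnip* (0.05, SE 0.0570) did not pass the test.

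Close relatives of the 10 genes were read beside them. Of 11 relatives, 10 were tested, and 6 were lower and 2 higher in shSrsf3 than in scramble cells without ligand (all genes, 23.7% lower and 45.9% in either direction). *Ccng1*, the paralogue of *Ccng2* and a p53 target, was at 222 CPM in scramble and 116 CPM in shSrsf3 cells (log2 fold change -0.94, adjusted p = 4.31e-07), and upon PDGF-AA its log2 fold change was -0.04 in scramble and 0.05 in shSrsf3 cells, neither called. *Irs1*, the paralogue of *Irs2*, fell upon ligand in scramble cells (-0.33, adjusted p = 0.0136) and in shSrsf3 cells (-0.36, adjusted p = 0.0288), the latter call being lost without any 1 of 8 of the 12 samples, and was lower in shSrsf3 than scramble cells (-0.23 without ligand, -0.26 with it). The arrestin relatives of *Txnip* did not move alike: in shSrsf3 against scramble cells without ligand, *Arrdc2* had a log2 fold change of -0.84, *Arrdc3* of -0.56 and *Arrdc4* of 0.49 (all called) and *Arrdc1* of -0.07 (not called). Upon PDGF-AA in scramble cells *Arrdc2* had a log2 fold change of -0.40 (adjusted p = 0.0266) and the other 3 were not called. *Ccni*, another cyclin, was higher in shSrsf3 cells without ligand (0.21), but was not called without the 3 libraries of lower mapping rate (0.13, adjusted p = 0.0720). *Sesn2*, the third sestrin, had log2 fold changes between -0.02 and 0.04 in the 4 comparisons, none called. *Foxo6* and *Irs4* were called lower in shSrsf3 cells without ligand (-2.19 and -1.71) from levels of 0.582 and 0.268 CPM in scramble cells, the call on *Irs4* being lost in 5 of the 12 single omissions (adjusted p = 0.0612 to 0.149), and *Bcl6b* did not pass the low-count filter. With the fit limited to the 2 groups compared, neither *Irs1* nor *Arrdc2* was called upon ligand in scramble cells. Leaving out scramble +PDGF-AA replicate 3 ended both calls (adjusted p = 0.0664 and 0.0770), and 4 other single omissions ended that of *Arrdc2*, as did leaving out the 3 libraries of lower mapping rate (0.0696). The difference in ligand effect between the lines was called for none of the relatives in the fit of all 12 samples (0.0133% of all genes). With no low-count filter it was called for 1 (0.803%).

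A longer list of 35 other genes known as FoxO targets was then read in the same way (33 tested). Upon PDGF-AA in scramble cells 7 fell and 1 rose (2.04% of all genes fell and 4.04% were called in either direction). Those that fell included *Fbxo32*, the ubiquitin ligase atrogin-1 (log2 fold change -0.54, adjusted p = 0.00249), *Hbp1*, a repressor of cell cycle genes (-0.36, adjusted p = 0.00275), *Cdkn1b*, the cyclin-dependent kinase inhibitor p27 (-0.32, adjusted p = 2.78e-04), and *Mxi1*, an antagonist of MYC (-0.24, adjusted p = 0.0223). *Trib1*, a pseudokinase, was the gene that rose (0.31, adjusted p = 0.0136). The median log2 fold change of the 33 was -0.06. In shSrsf3 cells none of the 33 was called upon ligand by edgeR, where 0.565% of all genes were called. At an unadjusted p under 0.05 there were 10, but the share of all genes at that threshold was not computed for this comparison. DESeq2 called 1 (1.76% of all genes), and edgeR with no low-count filter called 5 (1.38%). *Fbxo32*, *Hbp1*, *Cdkn1b* and *Mxi1* had log2 fold changes of -0.24, -0.20, -0.12 and -0.11 there. The difference in ligand effect between lines was called for none of the 33 by edgeR or DESeq2. With no low-count filter it was called for 1 (0.803% of all genes). In edgeR, 4 had an unadjusted p under 0.05, as did 5.54% of all genes. The count of 8 called in scramble cells (4.04% of all genes) was 3 in a fit of the 2 groups alone (1.68%). It was 5 or 4 when the first or the second scramble -PDGF-AA sample was left out (3.11% and 2.18% of all genes). With the first or the third scramble +PDGF-AA sample left out it was 4 or 3 (2.22% and 1.62%).

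**Figure D4:**
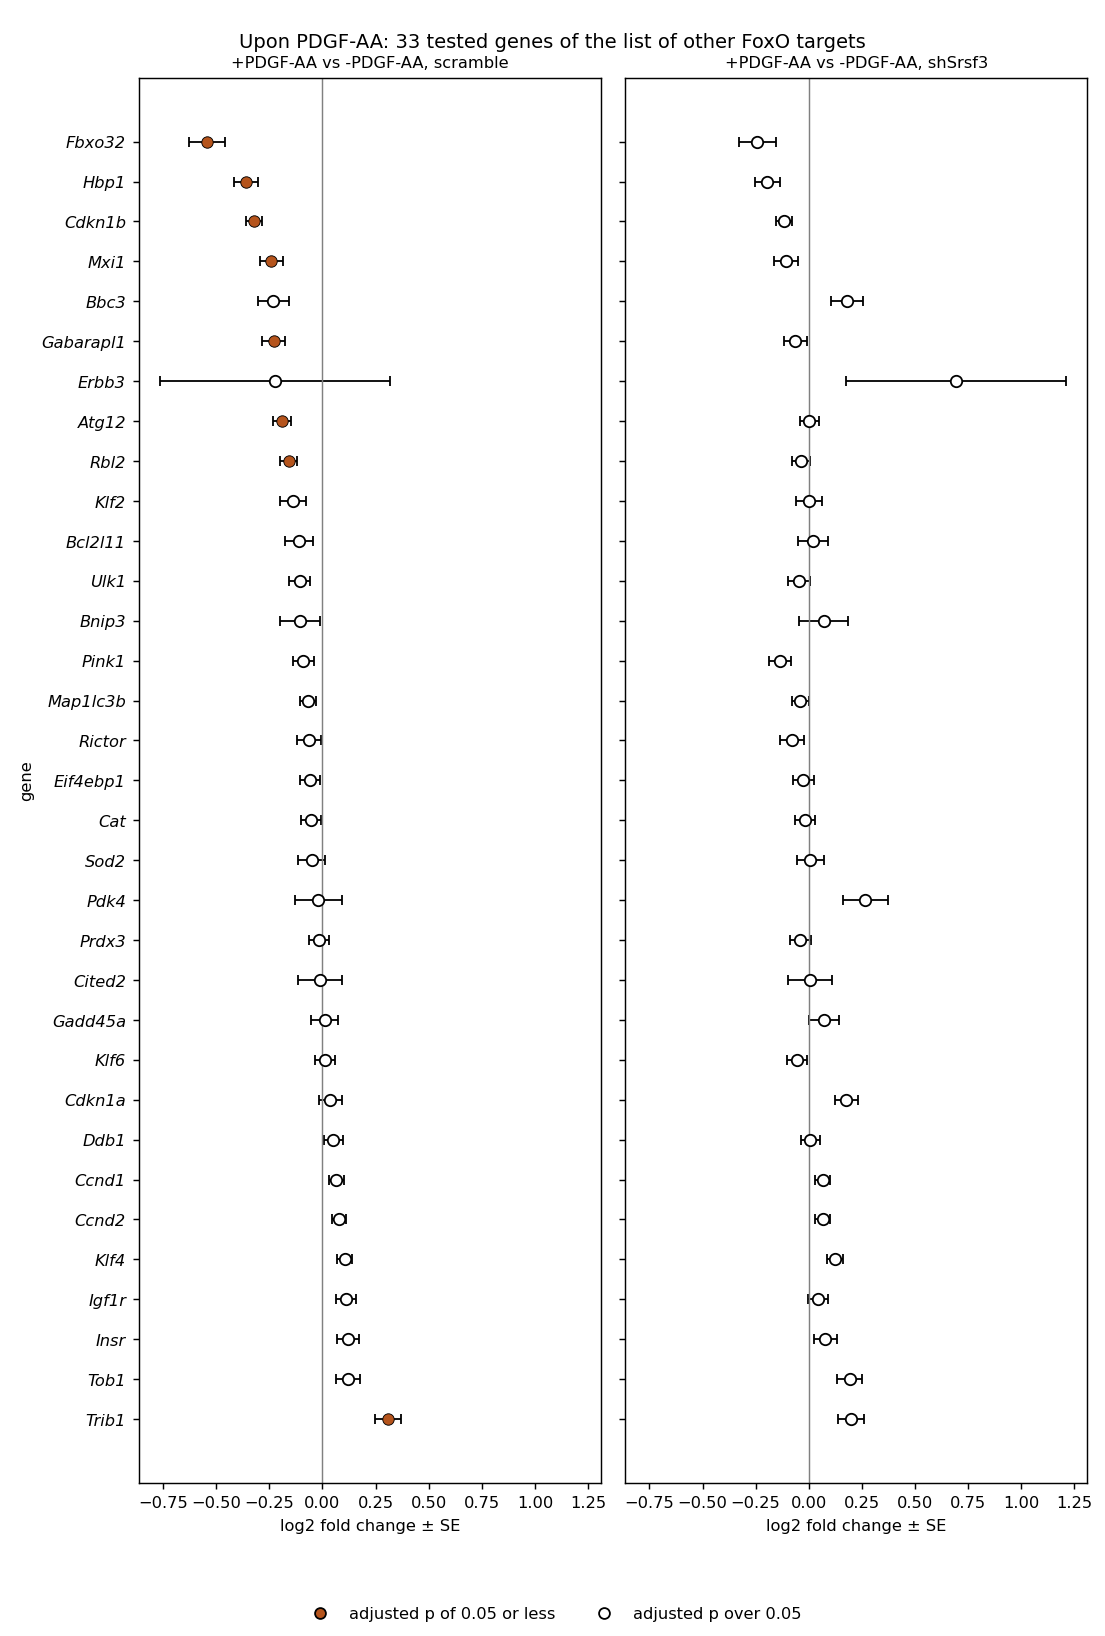
The log2 fold change upon PDGF-AA (x axis, with SE) of the 33 tested genes of the list of other FoxO targets, in scramble (left) and shSrsf3 cells (right), ordered by the scramble value. Filled points passed an adjusted p of 0.05 or less: 8 in scramble cells, 7 of them lower, and 0 in shSrsf3 cells.

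Between the lines, the same 33 genes moved in both directions. Without ligand 17 were lower and 5 higher in shSrsf3 cells, with a median log2 fold change of -0.13, and with ligand 11 were lower and 7 higher, with a median of -0.04. Over all genes, 45.9% were called without ligand (23.7% lower) and 41.0% with it (20.7% lower). *Bnip3*, a mitophagy receptor, had the largest difference (log2 fold change -1.67 without ligand and -1.49 with it), followed by *Pdk4*, which inhibits pyruvate dehydrogenase, in the opposite direction (0.95 and 1.23). *Cited2* was also higher (0.72 and 0.74). *Gadd45a*, a DNA damage response gene, and *Hbp1* were lower without ligand (-0.59 and -0.56) and with it (-0.53 and -0.39).

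Of 27 genes that regulate the FoxO factors, 11 were higher and 6 lower in shSrsf3 than scramble cells without ligand (45.9% of all genes called). With ligand 9 were higher and 5 lower (41.0%). Over single omissions the number called without ligand ranged from 13 to 18, where 37.9% to 48% of all genes were called. With ligand it was 9 without shSrsf3 +PDGF-AA replicate 1 (33.6% of all genes). Without the 3 libraries of lower mapping rate, *Ywhae*, *Ywhab* and *Ywhaz*, called lower without ligand, had log2 fold changes of -0.0378, -0.0446 and -0.0895. In the fit of all 12 samples these were -0.25, -0.22 and -0.15. *Stk4*, which encodes the kinase MST1, was higher by 0.80 without ligand and 0.89 with it on the log2 scale. The FoxO kinase gene *Sgk1* was higher by 0.60 and 0.57, *Akt2* by 0.41 and 0.37, and *Sgk3* was lower (-1.07 and -1.06). The level of *Sgk3* was low, at 1.90 CPM in scramble and 0.921 CPM in shSrsf3 cells without ligand. With ligand it was at 1.99 and 0.957 CPM. The 14-3-3 gene *Ywhag*, of the family that binds phosphorylated FoxO, was higher by 0.33 without ligand. Upon PDGF-AA *Sgk1* was the single gene of this list called in either line. Over all genes, 4.04% were called in scramble and 0.565% in shSrsf3 cells. Its log2 fold change was 0.32 in scramble cells (adjusted p = 0.00250) and 0.28 in shSrsf3 cells (adjusted p = 0.0141). Without scramble -PDGF-AA replicate 3, 4 of the list were called in scramble cells, where 9.8% of all genes were. Without shSrsf3 -PDGF-AA replicate 1 or 2 or shSrsf3 +PDGF-AA replicate 1 or 3, none was called in shSrsf3 cells (0.153% to 0.397% of all genes).

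Of 21 genes that work with the sestrins and *Txnip* in nutrient sensing, 20 were tested. Without ligand 3 were lower in shSrsf3 cells, *Mios*, *Wdr24* and *Rragc* (-0.37, -0.34 and -0.20), and *Castor1* was higher (0.48), 4 of 20 in all where 45.9% of all genes were called. The first 2 encode subunits of GATOR2, the complex that sestrins bind, and *Castor1* an arginine sensor that also binds it. With ligand 6 were lower and 2 higher, where 41.0% of all genes were called. Without scramble +PDGF-AA replicate 1 or shSrsf3 +PDGF-AA replicate 3, 5 were called in all (36% and 34.5% of all genes were). Upon PDGF-AA, *Slc2a1*, the glucose transporter GLUT1, rose in scramble cells (0.22, adjusted p = 0.0208). This was the single call of the 20 genes there, where 4.04% of all genes were called. The call was lost without scramble -PDGF-AA replicate 1, scramble +PDGF-AA replicate 1 or scramble +PDGF-AA replicate 3. No gene of the list was called in shSrsf3 cells by edgeR (0.565% of all genes) or DESeq2 (1.76%). In edgeR 1 had an unadjusted p under 0.05, but the share of all genes at that threshold was not computed for this comparison.

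The genes most like 4 of the 10 were named by the Pearson correlation of log2 CPM over the 12 samples, among 12252 genes with a mean count of at least 50. The samples form 4 groups, so these values mostly describe the order of group levels. For *Pik3ip1* they were *Pax3* (r = 0.991), *Hbp1* (0.989) and *Mxd4* (0.985). For *Foxo1* they were *Mxd4* (0.981), *Thra* (0.979) and *Pigv* (0.978), and for *Irs2* *Zfp324* (0.989), *Nacc2* (0.977) and *AW146154* (0.973). The best matches of *Txnip*, whose levels differed between ligand conditions more than between lines, were looser: *Etaa1* (0.902), *Tspyl1* (0.893) and *Cep68* (0.891).

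In GENCODE M39 (GRCm39) the genes whose values the comparisons turn on lie at chromosome 5, 93415116 to 93424095, plus strand (*Ccng2*), chromosome 11, 3280401 to 3292971, plus strand (*Pik3ip1*), chromosome 8, 11034681 to 11059499, minus strand (*Irs2*), chromosome 3, 52175757 to 52260642, plus strand (*Foxo1*), chromosome 10, 42057837 to 42154007, minus strand (*Foxo3*), and chromosome 3, 96465267 to 96469201, plus strand (*Txnip*). At most 1.41% of the 31-base words of any of the 10 genes occurred in transcripts of another gene, so paralogues share few reads. *Sesn1* overlaps exons of *Cep57l1* on the opposite strand, which had 202 to 499 counts per sample beside 376 to 1090 for *Sesn1*. Exons of *Foxo1*, *Foxo3*, *Irs2*, *Pik3ip1*, *Bcl6*, *Sesn3* and *Txnip* also overlapped genes on the opposite strand. The counted genes among these partners had at most 15 counts in any sample. Others, such as *Gm15441* at *Txnip*, were not counted under that name. The libraries were stranded, but how the counting used strand is not given in the sources used here.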

How the data were processed

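RNA was profiled in 12 iMEPM samples, 3 per group. The authors trimmed reads with BBDuk and quantified them with Salmon 1.4.0 against GENCODE M26 (GRCm39); the deposited expected counts per gene were summarized with tximport, and the scaling used is not given in the sources used here. The study's own test was DESeq2 1.32.0. Of the values, 16.3% were not whole and all were rounded. edgeR 4.0.16 (TMM, filterByExpr with a minimum count of 10, quasi-likelihood test, 1 mean per group, all 12 samples in 1 fit) gave log2 fold changes, standard errors and Benjamini-Hochberg adjusted p over 15037 genes. CPM used TMM-scaled library sizes. Genes with an adjusted p no higher than 0.05 were called, and those that also changed at least 2-fold were DE. The fit was tested on simulated counts. Alternatives were DESeq2 1.42.0, RLE scaling, no low-count filter, a replicate block, the 2 groups alone, 9 samples with a mapping rate over 90%, and leaving out each sample; for the other gene lists they were added after the results were seen.

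The 10 genes and the lists of other FoxO targets, FoxO regulators, nutrient partners, relatives and cell type markers were chosen with earlier results of these data known. Named genes were the 10, all relatives, and up to 5 called genes per list and comparison with the largest change. The 3 genes most like *Foxo1*, *Irs2*, *Pik3ip1* and *Txnip* were also named. Outside this rule, *Ywhae*, *Ywhab* and *Ywhaz* above and *Rbl2*, *Atg12* and *Gabarapl1* below were named after their values were seen. The labels call the samples biological replicates, taken from 1 line per shRNA, so p-values measure the spread between samples of these lines. No pair of samples in a group agreed within sampling noise (chi-square per gene of 4.00 to 32.6). Total counts of 30958966 to 76123359 gave the 10 genes at least 235 counts in every sample.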

Additional observations from a re-analysis of the deposited data

How the results depend on the processing

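Over the alternatives other than leaving out a sample, the number of the 10 genes called changed by more than 1.5 times, or from 0, in 5 cases. Without the 3 libraries of lower mapping rate, 1 gene (*Ccng2*) was DE upon PDGF-AA in scramble cells; with no low-count filter 5 were called upon PDGF-AA in shSrsf3 cells (1.38% of all genes were, against 0.565%); and the interaction called 1 with DESeq2, 1 with no low-count filter and 1 with the 9 samples. Leaving out 1 sample at a time, the counts ranged from 4 to 7 for shSrsf3 against scramble with ligand (33.6% to 44.5% of all genes). They ranged from 0 to 1 for DE genes upon PDGF-AA in scramble cells. For genes called upon PDGF-AA in shSrsf3 cells they ranged from 1 to 4 (0.153% to 1.12% of all genes). The cause was not tested.

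Signs turned only for differences near 0 that were not called. With the 9 samples the log2 difference was -0.000702 for *Txnip* in shSrsf3 against scramble with ligand, and in the interaction -0.0251 for *Irs2* and 0.0283 for *Sesn1*. Leaving out 1 sample, the values ranged from -0.0537 to 0.0290 for *Txnip* in shSrsf3 against scramble without ligand, from -0.0610 to 0.0236 and -0.0466 to 0.0181 for *Sesn3* upon PDGF-AA in scramble and shSrsf3 cells, and in the interaction from -0.0423 to 0.116 for *Foxo4*, -0.0612 to 0.0544 for *Irs2*, -0.111 to 0.0139 for *Sesn1* and -0.0353 to 0.0478 for *Sesn3*. Of the other FoxO targets called upon PDGF-AA in scramble cells, *Gabarapl1*, *Atg12* and *Rbl2* were not called with the 9 samples.

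Same-numbered samples did not deviate together (correlations from -0.127 to 0.152), so the numbers were not taken as pairs. With the replicate block 1 call among the 10 genes changed, that of *Sesn1* in shSrsf3 against scramble with ligand (adjusted p = 0.0507), and the counts of called genes were 6, 6, 6, 3 and 0 in the 5 tests. In the 9-sample fit, 1 scramble -PDGF-AA sample remained, replicate 3, and was assumed to vary like the others. This library stood apart from the others of its group by its counts. Every 9-sample value that involves scramble -PDGF-AA cells, such as those for *Foxo4*, *Sesn1* and *Ccng2*, rests on it.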
